A study of Danio rerio with 14 samples.

Results

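Enzymes that oxidise foreign compounds and couple them to small polar groups were read by 85 of the 17950 probes in the deposited table. A probe was taken when its gene symbol began with cyp or ugt followed by a digit, or with gst, sult or aldh, with no threshold on a measured value. These 85 probes read 55 of 8830 gene symbols. Cytochromes P450 (cyp) had 43 probes for 28 genes, aldehyde dehydrogenases (aldh) 22 for 13, glutathione S-transferases (gst) 11 for 6, sulfotransferases (sult) 7 for 6, and UDP-glucuronosyltransferases (ugt) 2 for 2. All 85 had a value on every array and none was filtered out here. According to the methods, the array carried more probes than the table holds, and spots dim on all arrays had been excluded earlier. Members of these families without a probe in the table could not be assessed, so the 85 probes are not full coverage of the families.

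The tissue was eyes of wild-type zebrafish larvae (AB strain). The 4 groups were larvae at 5 dpf (days post fertilization) raised in 200 µg/L TBBPA (tetrabromobisphenol A, a brominated flame retardant), control larvae at 5 dpf, larvae of the TBBPA treatment at 8 dpf after 3 days in clean water, and control larvae at 8 dpf. According to the methods, control medium held the dimethyl sulfoxide in which TBBPA was dissolved, so the comparison is with solvent and not with plain water. Each group had 3 RNA samples, and each sample pooled the eyes of 10 larvae from a plate of 24 eggs. The 12 samples were compared in pairs on 14 two-colour arrays.

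The values used here are log2 ratios between the paired samples of an array. Their base and overall direction rest on the methods and dye labels, since the table states neither. A level is therefore given below as the log2 value of a sample relative to the mean of the 12 samples for the same probe, and levels of different probes cannot be set against each other. Fold changes are fitted log2 differences ± standard error (SE), with n = 3 samples per group. The ages were linked only through replicate 1 of each 5 dpf group, so age changes rest on those samples more than on the others. A probe is said to rise or fall where limma gave it an adjusted p under 0.05, adjusted across all 17950 probes and with no minimum fold. The fitted SE and p take arrays as replicates. Differences between plates are part of the residual spread. That several arrays share an RNA sample is not accounted for, because the fit, made without a dye term, put that share at 0. With a dye term the share was estimated at 0.32. Then 3 of the 85 probes passed for TBBPA at 5 dpf, against 10 in the main fit. The dye term itself passed for 13.8% of all probes and for 6 of the 85. An exact permutation of 3 samples against 3 cannot give a p below 0.1. In pooled eyes, fewer cells of a type and less RNA per cell cannot be told apart.

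Markers of photoreceptors (16 of 18 listed genes measured), lens (15 of 19) and retinal pigment epithelium (8 of 15) had probes in the table, and so had markers of other tissues. Ratios carry no absolute level, so a marker that was absent from the eyes could not be told from one that was present. Control replicate 1 at 5 dpf stood apart. The mean level of its liver and plasma markers (11 of 28 genes measured) was 1.01, against -0.20 to 0.06 in the TBBPA samples of 5 dpf and -0.06 and 0.12 in the other 5 dpf controls. Intestinal markers (6 of 15 genes measured) stood at 0.64 in that sample, against -0.14 to 0.11 in the TBBPA samples and -0.07 and -0.04 in the other controls. Markers of exocrine pancreas (12 of 19 genes measured) were at -0.27 to 0.55 in the TBBPA samples and 0.78 to 1.98 in the 5 dpf controls, and 20 of their 23 probes fell. Markers of skin and corneal epithelium (25 of 25 genes) were at 0.54 to 0.72 in the TBBPA samples and 0.11 to 0.52 in the controls, and 41 of their 74 probes rose. Lens markers were at -0.26 to 0.04 in the TBBPA samples and -0.68 to -0.47 in the 5 dpf controls, and 15 of their 38 probes rose. Photoreceptor markers were at 0.30 to 0.52 in the TBBPA samples and 0.22 to 0.27 in the controls, with 9 of 34 probes rising and 4 falling. Of the skeletal muscle probes 11 of 43 rose. Of the liver and plasma probes 7 of 21 fell, and of the intestinal probes 1 of 8. Pigment epithelium markers fell on 2 of 14 probes. Muller glia markers (9 of 11 genes measured) rose on 2 of 25 probes and fell on 1. Of all probes, 4.23% rose and 2.84% fell for TBBPA at 5 dpf. The part of these tissues in the enzyme results was not tested.

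As background, detoxification runs in steps. P450 enzymes and aldehyde dehydrogenases oxidise a compound, and transferases then attach glutathione, sulfate or glucuronic acid so that it can be excreted. Many of the same families also act on the body's own signals. Aldh1a enzymes make retinoic acid from retinaldehyde and Cyp26 enzymes degrade it, a balance that patterns the developing eye, and other members handle steroid hormones, vitamin D and bile acids.

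At 5 dpf, the end of exposure, 8 of the 85 probes rose in TBBPA eyes and 2 fell. All these changes were small. The largest was a 1.48-fold rise of cyp2y3, and 0 of the 10 passed the additional limit of the study, an absolute log2 fold change over 0.75, which 0.708% of all probes passed. The 8 probes that rose were 9.41% of the members, against a background of 4.23% of all probes. The 2 that fell were 2.35%, against 2.84%. The median over the members was 0.02. By family, the median was -0.00 for cyp, 0.02 for aldh, 0.16 for gst, 0.20 for sult and 0.08 for ugt. Levels of the 3 TBBPA and 3 control samples did not overlap for 8 probes that were higher and 12 that were lower, together 23.5% of the members, against 17.7% of all probes. Leaving out control replicate 1 of 5 dpf left 2 calls, cyp2y3 and aldh1a2. The share of all probes that passed in either direction was 0.273% without that sample and 7.08% with it.

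**Figure D1:**
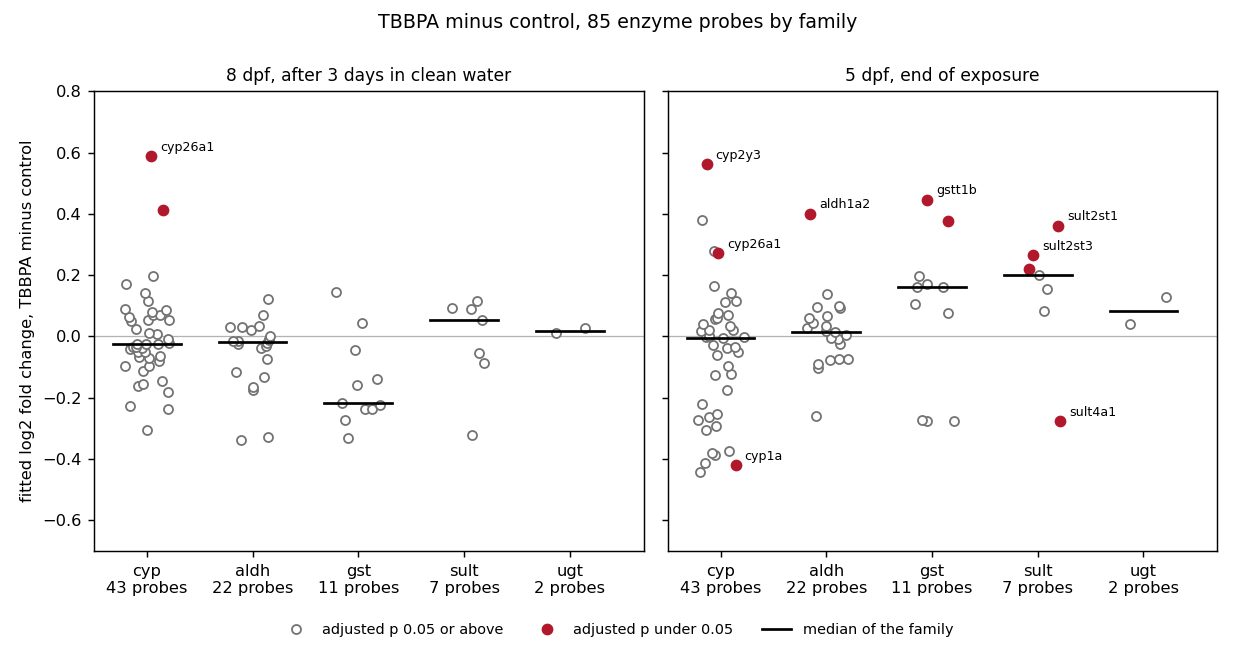
Fitted log2 fold change of TBBPA minus control for the 85 enzyme probes by family, at 8 dpf (left) and 5 dpf (right); each circle is a probe, filled where the adjusted p was under 0.05, each line is the median of the family, and each passing gene is named at its largest probe. The filled circles are 10 at 5 dpf and 2 at 8 dpf, and the gst median is 0.16 at 5 dpf and -0.22 at 8 dpf.

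The retinoic acid enzymes held 2 of the probes that rose at 5 dpf. The enzyme aldh1a2, which synthesises retinoic acid, stood on its probe A_15_P103706 at 0.63, 0.59 and 0.42 in the TBBPA samples, against 0.23, 0.10 and 0.12 in the 5 dpf controls. All TBBPA samples were above all controls. The difference was 0.40 ± 0.05 (adjusted p = 0.000422), and TBBPA was higher on 6 of the 6 arrays that paired the treatments directly. The call held under all 19 other settings of the test on single probes. These settings, here and below, leave out the averaging of probes and the fold limit of the study, which no member passed at 5 dpf. The second aldh1a2 probe, A_15_P631751, had 0.12, 0.12 and -0.03 in TBBPA samples and -0.03, 0.04 and -0.06 in controls. These ranges overlapped, and the difference of 0.10 (95% confidence interval -0.00 to 0.20, adjusted p = 0.243) did not pass. The 2 probes of this gene thus gave different sizes, and only their larger value passed.

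The retinoic acid hydroxylase cyp26a1 rose at 5 dpf on its probe A_15_P110118, with 0.27 ± 0.08 (adjusted p = 0.0464). Its levels were -0.37, 0.09 and 0.03 in the TBBPA samples and -0.34, -0.38 and -0.42 in the controls. TBBPA replicate 1 lay among the controls and the other TBBPA samples above them, so the groups overlapped. This call held under 5 of 19 other settings. It was lost with a dye effect and the RNA sample share estimated again, and with that share set to 0.25. Without control replicate 1 the difference was 0.24 (adjusted p = 0.424). The second probe, A_15_P162866, gave 0.14 (adjusted p = 0.166). Of the other 2 Cyp26 genes, cyp26b1 had 0.28 (interval 0.06 to 0.50, adjusted p = 0.118) on the probe A_15_P118501 and 0.04 (-0.42 to 0.50) on the other, and cyp26c1 had -0.18 (-0.33 to -0.02, adjusted p = 0.179). Without control replicate 3 the larger cyp26b1 value was 0.42 (adjusted p = 0.0271).

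Among the P450s best known from toxicology, cyp1a fell. Cyp1a is the classic target of the aryl hydrocarbon receptor and oxidises planar aromatic compounds. Its levels were -0.08, -0.15 and -0.28 in TBBPA eyes, against 0.26, 0.12 and 0.40 in controls at 5 dpf. All TBBPA samples were below all controls, and TBBPA was lower on 6 of 6 direct arrays. The difference was -0.42 ± 0.10 (adjusted p = 0.018). Leaving out control replicate 1, which was high in liver markers, gave -0.41 but an adjusted p of 0.286. That fit had 7 residual degrees of freedom, against 11 in the main fit, and 0.273% of all probes passed in it. The call was also lost without control replicate 3 (adjusted p = 0.0686), control replicate 2 of 8 dpf (0.0524), or TBBPA replicate 1 (0.116), 2 (0.0677) or 3 (0.107) of 5 dpf. It was lost too with the RNA sample share set to 0.25, and with a dye effect and that share estimated again. In all, the call held under 11 of 19 other settings. Its relative cyp1b1, inducible by the same receptor and mutated in human congenital glaucoma, differed by 0.00 (-0.10 to 0.11). The fish P450s cyp1c1 and cyp1d1 differed by 0.06 and -0.00, and neither passed.

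The largest and most even rise at 5 dpf was that of cyp2y3, a member of the CYP2 family of P450s. It had 0.54, 0.56 and 0.54 in the TBBPA samples, against 0.04, -0.05 and -0.03 in the controls. The TBBPA samples had an SD of 0.01 and lay above every sample of the other groups. The rise was 0.56 ± 0.05 (adjusted p = 2.75e-05), was present on 6 of 6 direct arrays, and held under all 19 other settings, with values between 0.55 and 0.60. None of the other 16 CYP2 probes passed at 5 dpf, and their family median including cyp2y3 was -0.12. A further CYP2 probe, named cyp2aa6 only in the GRCz12tu annotation and not counted, rose by 0.32 (adjusted p = 0.00382). All 4 probes of cyp2aa12 were lower without overlap, at -0.37 to -0.44 (adjusted p = 0.0856 to 0.138). On each of them TBBPA was higher on 1 of 6 direct arrays. Also lower without overlap were both probes of cyp2ad3 (-0.25 and -0.27), both of cyp2k17 (-0.29 and -0.30) and that of cyp2p6 (-0.10).

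The intestinal and hepatic P450 cyp3a65 was high in a single sample. It was at 0.00, -0.02 and 0.29 in TBBPA eyes, against 1.32, -0.19 and -0.14 in the 5 dpf controls. Only control replicate 1, the sample high in liver and intestinal markers, was above 0.29. The fitted difference of -0.39 (-0.81 to 0.03, adjusted p = 0.264) did not pass, and without that sample it was 0.23 (adjusted p = 0.175). Brain aromatase cyp19a1b, which makes estrogens, differed by 0.00 (-0.09 to 0.10). The bile acid enzyme cyp7a1a had 0.38 (0.07 to 0.70, adjusted p = 0.138).

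**Figure D2:**
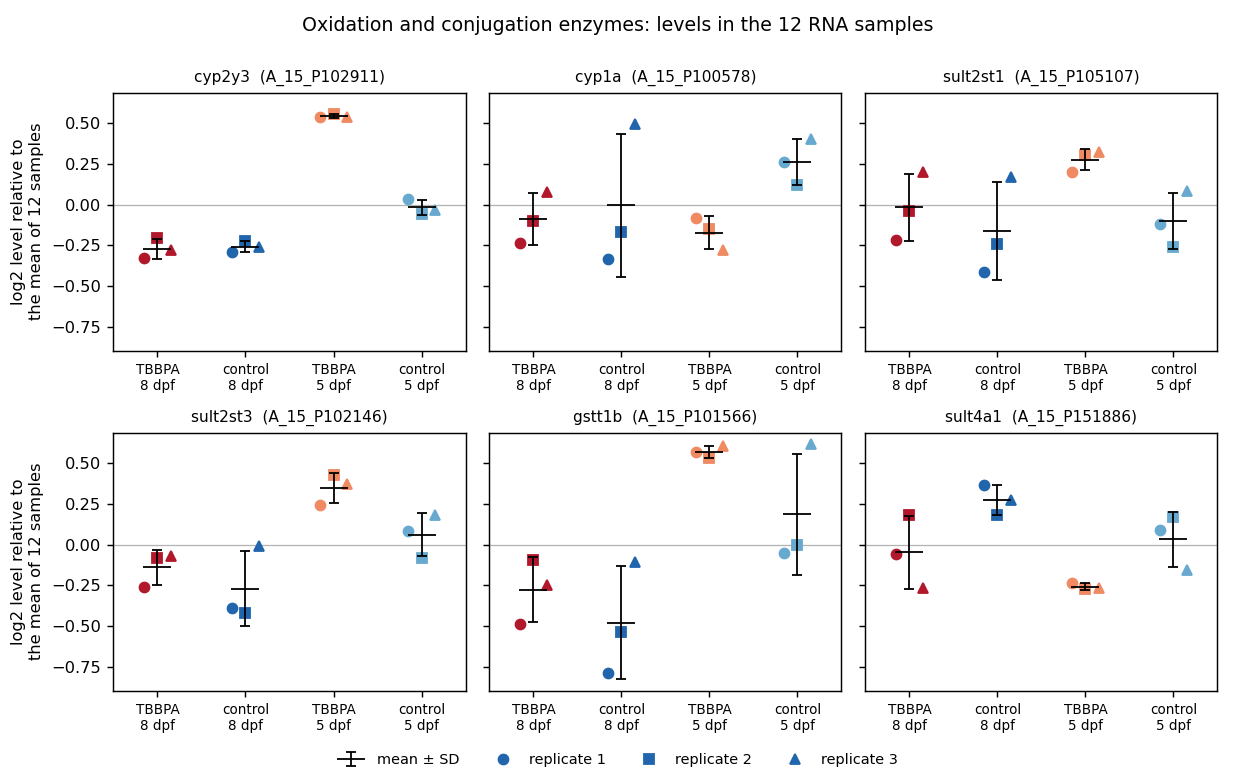
Levels of 6 oxidation and conjugation enzyme probes in the 12 RNA samples, as log2 values relative to the mean of the 12 samples; symbols are replicates, and bars are mean ± SD of the 3 samples of a group. The 3 TBBPA samples of 5 dpf sit at 0.54 to 0.56 for cyp2y3, above every other sample, and below the 5 dpf controls for cyp1a and sult4a1.

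Among the transferases, 5 probes rose at 5 dpf and 1 fell. Of the 11 gst probes 2 rose (18.2%), and of the 7 sult probes 3 rose (42.9%) and 1 fell (14.3%). Of the 2 ugt probes 0 passed. The shares of all probes were 4.23% that rose and 2.84% that fell. The rises were in gstt1b, sult2st1 and sult2st3. The theta-class glutathione transferase gstt1b had 0.57, 0.53 and 0.60 in TBBPA eyes on its probe A_15_P101566, against -0.05, -0.00 and 0.61 in controls. Control replicate 3 was as high as the TBBPA samples, so the groups overlapped. The differences were 0.45 ± 0.11 (adjusted p = 0.0231) on this probe and 0.38 ± 0.11 (adjusted p = 0.0492) on the other. They held under 9 and 4 of 19 other settings. Without control replicate 1 they were 0.26 (adjusted p = 0.501) and 0.15 (adjusted p = 0.66).

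The SULT2 family, which in mammals sulfates hydroxysteroids, gave 3 rises on 4 probes. No other of the 7 sult probes rose. The transcript sult2st1 had 0.20, 0.30 and 0.32 in TBBPA eyes and -0.12, -0.26 and 0.08 in controls. The groups did not overlap, and the difference was 0.36 ± 0.08 (adjusted p = 0.0109). For sult2st3 the levels on A_15_P102146 were 0.24, 0.42 and 0.37 in TBBPA eyes and 0.08, -0.08 and 0.18 in controls, again without overlap. Its 2 probes gave 0.27 ± 0.06 (adjusted p = 0.0198) and 0.22 ± 0.06 (adjusted p = 0.0411). TBBPA was higher on 6 of 6 direct arrays for each of these 3 probes, and the calls held under 14, 10 and 7 of 19 other settings. Each of the 3 was lost when control replicate 1 or 2, or TBBPA replicate 1 or 2, of 5 dpf was left out. All 3 were also lost with the RNA sample share set to 0.25. With a dye effect and that share estimated again, sult2st1 kept its call and both sult2st3 probes lost theirs. Without control replicate 1 the values were 0.34, 0.27 and 0.23 (adjusted p = 0.252, 0.227 and 0.361). The probe of sult2st2, the direct neighbour of sult2st1 in the GRCz12tu annotation, had 0.15 (adjusted p = 0.138).

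The transcript that fell among the transferases was sult4a1, which in mammals is a brain sulfotransferase. It stood at -0.24, -0.27 and -0.27 in TBBPA eyes, against 0.09, 0.17 and -0.16 in controls. The groups did not overlap. The difference was -0.28 ± 0.08 (adjusted p = 0.0395), and the call held under 7 of 19 other settings. It was lost with a dye effect and the RNA sample share estimated again, and with that share set to 0.25. Without control replicate 2 the difference was -0.22 (adjusted p = 0.287). The phenol sulfotransferase sult1st6 differed by 0.08 (-0.06 to 0.22), and sult6b1 by 0.20 (adjusted p = 0.159). The 4 probes of gstp1, the pi-class glutathione transferase, had 0.08 to 0.20 with adjusted p of 0.297 to 0.763. The mu-class gstm and alpha-class gstal had -0.27, -0.28 and -0.28, and none of the 3 passed. The glucuronosyltransferases ugt1b5 and ugt5e1 differed by 0.04 (-0.08 to 0.16) and 0.13 (0.00 to 0.25). Outside aldh1a2, 0 of the 20 aldehyde dehydrogenase probes passed, with differences of -0.26 to 0.14.

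At 8 dpf, after 3 days in clean water, 2 of the 85 probes rose and 0 fell, and both read cyp26a1. They were 2.35% of the members, against 0.696% of all probes that rose and 0.696% that fell. With the probes of a gene averaged, 1 of the 55 member genes passed, against 1.6% of all genes in either direction. Past the fold limit of the study were 0 members and 0.217% of all probes. On A_15_P110118 the levels of cyp26a1 were 0.51, 0.55 and 0.55 in TBBPA eyes, against -0.27, 0.05 and 0.02 in controls. On A_15_P162866 they were 0.28, 0.30 and 0.43 in TBBPA eyes, against -0.26, 0.00 and -0.01 in controls. On both probes the TBBPA samples of 8 dpf were the 3 highest of all 12. The differences were 0.59 ± 0.09 (adjusted p = 0.00607) and 0.41 ± 0.07 (adjusted p = 0.00957), or 1.5-fold and 1.33-fold, and TBBPA was higher on 4 of 4 direct arrays on each.

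The size of the cyp26a1 difference at 8 dpf was steady, at 0.53 to 0.68 and 0.37 to 0.47 over 19 other settings. The calls were kept under 14 of the 19. They were lost without control replicate 1 (adjusted p = 0.104 and 0.136) or 2 (0.0623 and 0.0635), without TBBPA replicate 1 (0.137 and 0.154) or 3 (0.0703 and 0.078), and on the direct arrays alone (0.0958 and 0.175). The other retinoic acid enzymes did not pass at 8 dpf: cyp26c1 had 0.20 (0.01 to 0.39), cyp26b1 had 0.06 and -0.05, and aldh1a2 had -0.01 on either probe (-0.13 to 0.11 and -0.13 to 0.10).

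**Figure D3:**
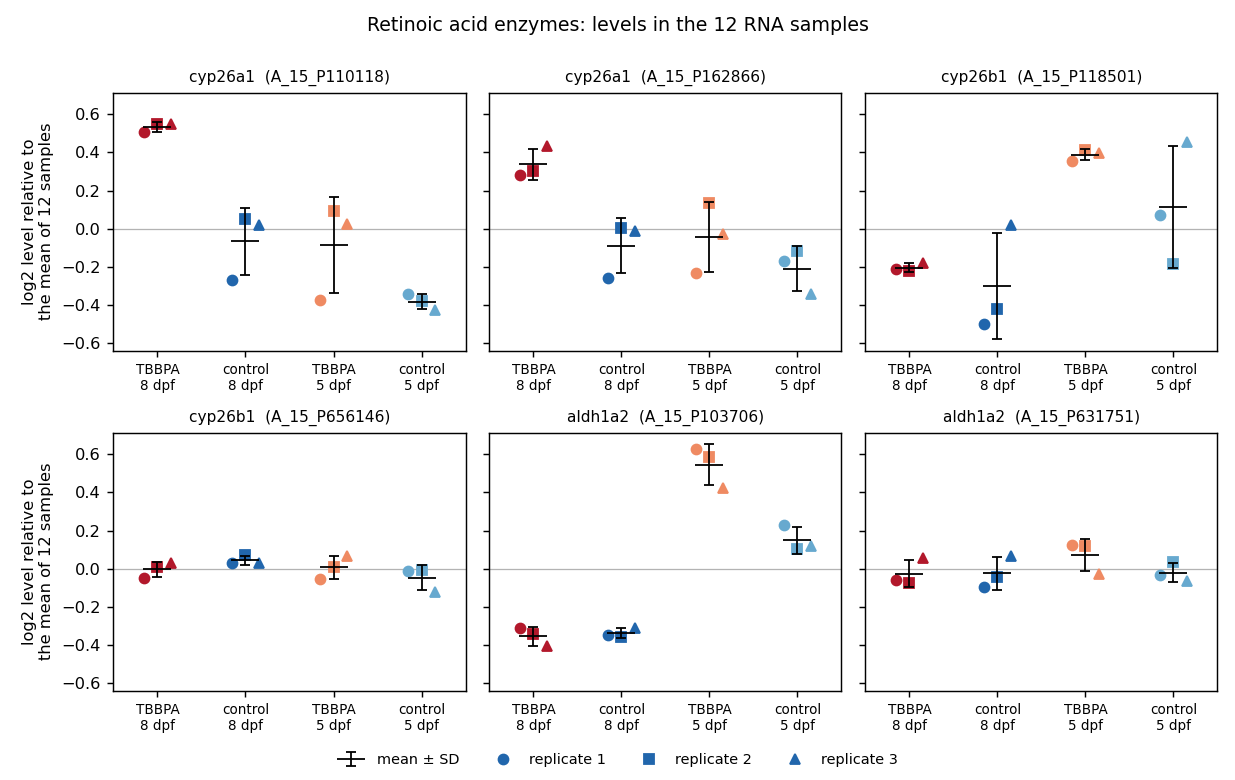
Levels of the retinoic acid enzymes aldh1a2, cyp26a1 and cyp26b1 (2 probes each) in the 12 RNA samples, as log2 values relative to the mean of the 12 samples; symbols are replicates, and bars are mean ± SD of 3 samples. For cyp26a1 the TBBPA samples of 8 dpf lie above all other samples on both probes, at 0.51 to 0.55 and 0.28 to 0.43, and for aldh1a2 the TBBPA samples of 5 dpf lie above the rest on the probe A_15_P103706 alone.

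The other probes that had risen at 5 dpf were near 0 at 8 dpf. The difference at 8 dpf was -0.02 (-0.14 to 0.10) for cyp2y3, 0.14 and -0.04 for gstt1b, 0.09 for sult2st1, and 0.09 and 0.11 for sult2st3. The value of sult4a1 was -0.32 (-0.51 to -0.13, adjusted p = 0.114) and did not pass, although TBBPA was lower on 4 of 4 direct arrays. That of cyp1a was -0.15 (-0.39 to 0.10), and its controls spread over -0.33, -0.17 and 0.49. The median was -0.03 for cyp, -0.02 for aldh, -0.22 for gst, 0.05 for sult and 0.02 for ugt. Of the 11 gst probes, 9 had negative values and 0 passed. The lowest was a gstp1 probe with -0.33 (adjusted p = 0.278). The largest difference among the aldehyde dehydrogenases was that of an aldh9a1a probe, with -0.34 (-0.70 to 0.02, adjusted p = 0.467), whose TBBPA levels spread over -0.70, 0.34 and -0.61. Levels did not overlap for 7 higher and 2 lower probes, 10.6% of the members, against 6.17% of all probes. Photoreceptor markers rose at 8 dpf on 9 of 34 probes and fell on 1, against 0.696% and 0.696% of all probes. Their levels were -0.33 to -0.07 in TBBPA eyes and -0.64 to -0.31 in controls. Skeletal muscle markers fell on 2 of 43 probes and pigment epithelium markers on 1 of 14. No probe of the other marker lists passed. The part of these tissues in the 8 dpf results was not tested.

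Whether the effect of TBBPA differed between the ages was tested directly as effect at 8 dpf minus effect at 5 dpf. This difference passed for 1 member, cyp2y3, with -0.58 ± 0.07 (adjusted p = 0.0047), and for 0.0613% of all probes. Levels of cyp2y3 were -0.33, -0.20 and -0.28 in TBBPA eyes and -0.29, -0.22 and -0.26 in controls at 8 dpf, and these overlapped fully. The difference lay between -0.55 and -0.65 over 18 other settings. It lost its call without control replicate 1 of 5 dpf (adjusted p = 0.236), control replicate 2 of 8 dpf (0.0743), TBBPA replicate 1 of 5 dpf (0.116), or TBBPA replicate 1 (0.082) or 3 (0.064) of 8 dpf. For aldh1a2 (A_15_P103706) the difference of effects was -0.41 ± 0.07 (adjusted p = 0.0634), and it passed without control replicate 3 (0.0415) or TBBPA replicate 3 (0.044) of 5 dpf, with a dye effect (0.0463) and with the replicate number as a block (0.0241). For cyp26a1 it was 0.32 ± 0.12 (adjusted p = 0.314) and 0.27 ± 0.09 (adjusted p = 0.253). An effect on cyp26a1 that differs between 5 and 8 dpf was therefore not shown.

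More member probes passed for age than for TBBPA, and so did more of all probes. With arrays centred and scaled, however, 5 members passed for age in controls and 8 for TBBPA at 5 dpf. The 2 age comparisons are tied together through replicate 1 of the 5 dpf TBBPA and control groups, since each of the 4 arrays that linked the ages held one of these samples. The other 5 dpf samples enter an age change only through the fitted difference between TBBPA and control. In controls, 6 member probes were higher at 8 dpf than at 5 dpf and 26 were lower. Those were 7.06% and 30.6% of the members, against 14% and 18.2% of all probes. In TBBPA larvae 16 probes were higher and 32 lower, 18.8% and 37.6%, against 20.9% and 22.4%. Past the fold limit of the study were 7 members in controls, where 6.8% of all probes passed it, and 14 in TBBPA larvae, where 9.32% did.

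The glutathione transferase probes counted here were lower at 8 dpf. All 11 gst probes had negative values in both treatments, and the fall passed for 11 of 11 in TBBPA larvae and 9 of 11 in controls. The median was -0.82 in TBBPA larvae and -0.63 in controls, against medians of 0.03 and 0.04 for the P450s. Further probes bear a gst name only in the GRCz12tu annotation and were not counted. Of these, gstr rose with age in controls (0.50, adjusted p = 0.00876) and gstm.2 fell (-0.54, adjusted p = 0.00757). Those of gstt2, gstz1 and gstk1 had 0.11, 0.01 and -0.12 in controls and did not pass. Levels of gstp1 (A_15_P107422) were -0.82, -0.77 and -0.09 in controls at 8 dpf, against 0.68, 0.27 and 0.80 in controls at 5 dpf. Replicate 3 of 8 dpf was the highest of its group but still below all 5 dpf samples. The fitted change was -1.11 ± 0.18 (adjusted p = 0.000331), and the other gstp1 probes gave -1.10, -0.88 and -0.58. In the same comparison gstal fell by 0.82 on the log2 scale, gstt1a by 0.73, and gstm by 0.63 and 0.59. Without control replicate 1 of 5 dpf these calls were lost for gstal (-0.87, adjusted p = 0.0559), gstt1a (-0.65, 0.162) and the first gstm probe (-0.64, 0.182). With arrays centred and scaled they were lost too, at -0.59 for gstal (adjusted p = 0.0723), -0.42 for gstt1a (0.135) and -0.43 for gstm (0.193). The gstp1 falls of -1.11, -1.10 and -0.88 also lost their calls under this scaling, and without control replicate 1 of 5 dpf. Each of these gstp1 calls held under 16 of 18 other settings. Over those 18 settings their smallest falls were -0.64, -0.62 and -0.47. The gstm probe also lost its call without control replicate 1 (0.0746) or 2 (0.158) of 8 dpf or TBBPA replicate 1 of 5 dpf (0.157).

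Several other members fell with age in controls. The lysine-degrading enzyme aldh7a1 had -0.71 ± 0.11 and -0.55 ± 0.08 on its 2 probes (adjusted p = 0.000162 and 8.62e-05). The retinoic acid synthase aldh1a2 had -0.59 ± 0.07 on A_15_P103706 (adjusted p = 3.35e-05), and the glucuronosyltransferase ugt1b5 had -0.59 ± 0.08 (adjusted p = 0.000123). Levels of ugt1b5 were even within groups, at -0.31, -0.31 and -0.38 in controls at 8 dpf, against 0.28, 0.31 and 0.35 at 5 dpf. The P450 cyp27c1, which in zebrafish makes the form of vitamin A that shifts visual pigments to the red, had -0.40 (adjusted p = 0.0103) on A_15_P627971 and -0.08 (adjusted p = 0.522) on the other probe. Over the same age step, marker levels of pigment epithelium were -0.42 to 0.00 in 8 dpf controls and 0.06 to 0.68 in 5 dpf controls, and those of skin and cornea were -0.65 to -0.06 in 8 dpf controls and 0.11 to 0.52 in 5 dpf controls. Of all probes 14% rose and 18.2% fell in this comparison. Exocrine pancreas markers fell on 23 of 23 probes (median -2.33) and photoreceptor markers on 19 of 34 (median -0.56). Liver and plasma markers fell on 12 of 21 probes and rose on 3 (median -0.64), and intestinal markers fell on 4 of 8 (median -0.59). Lens markers rose on 22 of 38 probes and fell on 1 (median 0.62). Muller glia markers rose on 14 of 25 probes and fell on 5 (median 0.50). Skeletal muscle markers fell on 18 of 43 probes and rose on 2 (median -0.35). The part of these tissues in the falls of gst and other members was not tested.

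**Figure D4:**
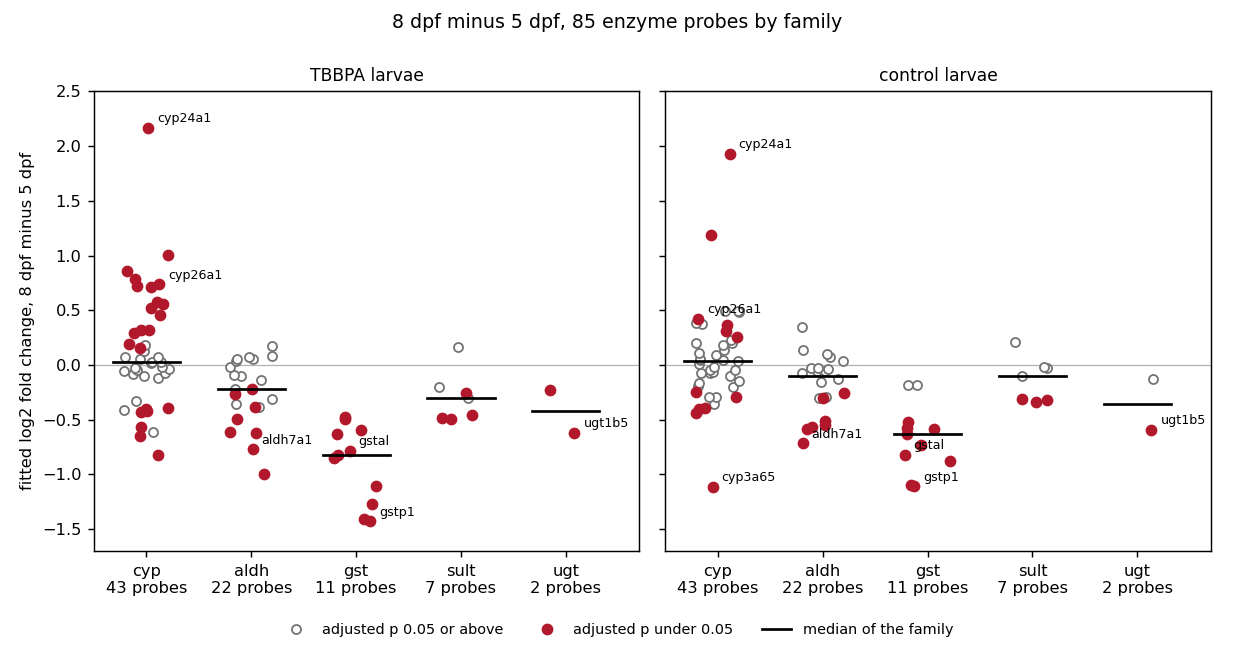
Fitted log2 change between ages, 8 dpf minus 5 dpf, for the 85 enzyme probes by family, in TBBPA larvae (left) and control larvae (right); each circle is a probe, filled where the adjusted p was under 0.05, each line is the median of the family, and some genes are named at their largest passing probe. All 11 gst probes lie below 0 in both panels, and cyp24a1 lies highest at 2.17 and 1.93.

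The 6 probes that rose with age in controls were all P450s. The vitamin D 24-hydroxylase cyp24a1, which inactivates vitamin D, stood on A_15_P141076 at 0.48, 0.76 and 1.65 in controls at 8 dpf, against -0.92, -1.06 and -0.64 at 5 dpf. On A_15_P633826 it stood at 0.36, 0.75 and 0.79 in controls at 8 dpf, against -0.58, -0.52 and -0.48 at 5 dpf. Neither pair of groups overlapped. The rises were 1.93 ± 0.20 (adjusted p = 5.25e-06) and 1.19 ± 0.10 (adjusted p = 1.17e-06), or 3.82-fold and 2.28-fold, and were kept under all 18 other settings. In TBBPA larvae they were 2.17 ± 0.20 and 1.01 ± 0.10. The other rises in controls were in cyp26a1 (0.42 on A_15_P110118), cyp4f3 (0.37), cyp2u1 (0.31) and cyp4t8 (0.26). These 4 were less steady. Over 18 other settings cyp26a1 lay at 0.22 to 0.47 with 14 calls kept, cyp4f3 at 0.15 to 0.53 with 11, cyp2u1 at 0.18 to 0.35 with 13, and cyp4t8 at 0.14 to 0.31 with 7. All 4 calls were lost without control replicate 1 of 5 dpf (adjusted p = 0.231, 0.0818, 0.242 and 0.452) and without control replicate 2 of 8 dpf (0.12, 0.144, 0.142 and 0.103). Without control replicate 1 of 8 dpf cyp4f3 was 0.22 (0.221), and without TBBPA replicate 1 of 5 dpf it was 0.21 (0.344). In humans CYP4F3 and CYP2U1 hydroxylate fatty acids or leukotrienes.

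The size of the cyp3a65 age change depended on control replicate 1 of 5 dpf. The fitted fall of cyp3a65 in controls was -1.11 ± 0.30 (adjusted p = 0.0116), but its levels were -0.33, -0.42 and -0.12 at 8 dpf against 1.32, -0.19 and -0.14 at 5 dpf. The difference between the means of these levels was -0.62. Without control replicate 1 of 5 dpf the fitted change was -0.00 (adjusted p = 0.993). Without that sample 6 member probes passed in controls, against 32 with it, and 7.77% of all probes passed, against 32.3%. The 3 largest falls of gstp1 were then -1.05, -1.10 and -0.80, with adjusted p of 0.0642, 0.0731 and 0.0842. In TBBPA larvae 15 member probes passed without TBBPA replicate 1 of 5 dpf, against 48 with it, and 9.83% of all probes, against 43.3%. Control and TBBPA replicate 1 of 5 dpf were each on 4 arrays, and each other sample was on 2. Without either of them the residual degrees of freedom were 7, against 11.

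**Figure D5:**
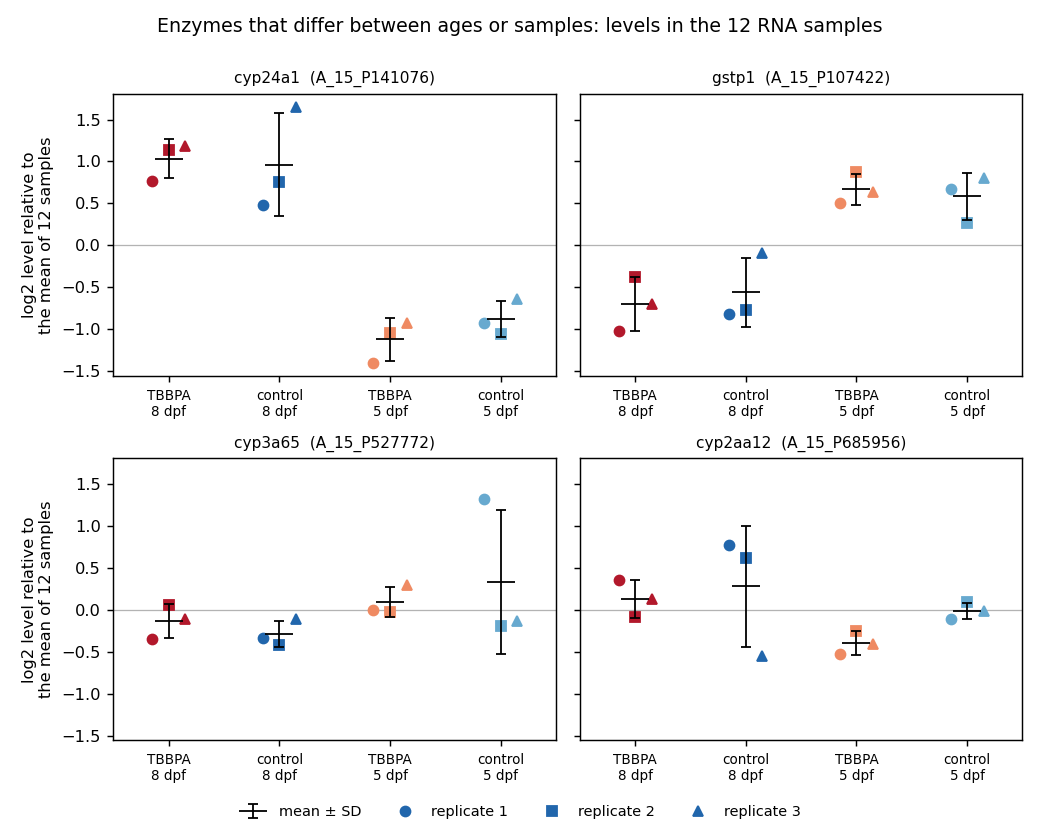
Levels of cyp24a1, gstp1, cyp3a65 and cyp2aa12 (1 probe each) in the 12 RNA samples, as log2 values relative to the mean of the 12 samples; symbols are replicates, and bars are mean ± SD of 3 samples. For cyp24a1 and gstp1 the 8 dpf and 5 dpf samples separate, for cyp3a65 control replicate 1 of 5 dpf stands alone at 1.32, and for cyp2aa12 the 8 dpf controls run from -0.55 to 0.77.

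Fitted levels of the samples of a group also differed among themselves. At 8 dpf, control replicates 1 and 2 shared direct arrays with TBBPA replicate 1 only. Control replicate 3 shared direct arrays with TBBPA replicates 2 and 3 only. These sets met only through the arrays that linked the ages. Differences between the sets rest on those arrays, and the part of array error in them was not tested. The SD of the 3 levels had a median of 0.14 in TBBPA larvae and 0.22 in controls at 8 dpf, and of 0.09 in TBBPA larvae and 0.12 in controls at 5 dpf. The widest in the 8 dpf controls was a cyp2aa12 probe, at 0.77, 0.62 and -0.55. The 4 cyp2aa12 probes and the 2 cyp2k17 probes all had control replicates 1 and 2 high and replicate 3 low at 8 dpf. For most members replicate 3 was instead the highest 8 dpf control, on 58 of 85 probes (68.2%), against 47% of all probes. TBBPA replicate 1 was the lowest of its 8 dpf group on 52 of 85 (61.2%), against 38.2% of all probes. At 5 dpf, control replicate 2 was the lowest on 52 of 85 (61.2%), against 34.4%.

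Of the 55 genes, 22 had several probes, 52 in all. At 5 dpf 4 of these genes had a probe that passed, and in 2 of them, gstt1b and sult2st3, all probes did. At 8 dpf the only such gene was cyp26a1, on both its probes. With the probes of a gene averaged, the change of cyp26a1 was 0.50 ± 0.07 at 8 dpf (adjusted p = 0.00275) and 0.21 ± 0.06 at 5 dpf (adjusted p = 0.0501), and that of aldh1a2 was 0.25 ± 0.04 at 5 dpf (adjusted p = 0.00239). Some gene copies lie side by side in the GRCz12tu annotation (aldh2a with aldh2b, sult2st1 with sult2st2, and cyp2ad3 among cyp2p6 and cyp2v2). Probes of close relatives may share signal, but no probe sequence was at hand and this was not tested. Values of such pairs are uncertain to that extent.

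Genes that serve these enzymes were taken from lists of receptors and partners of the aryl hydrocarbon and pregnane X pathways, electron donors of P450s, enzymes that supply cosubstrates, the Nrf2 pathway, further oxidation and conjugation enzymes, and efflux transporters. Of 81 listed genes 38 were measured, by 64 probes. At 5 dpf 0 of the 64 rose and 1 fell, the peroxiredoxin prdx1 on 1 of its 3 probes with -0.23 ± 0.06 (adjusted p = 0.0298). These were 0% and 1.56% of the 64, against 4.23% and 2.84% of all probes. At 8 dpf 0 rose and 0 fell, against 0.696% and 0.696% of all probes. With age in controls 9 were higher at 8 dpf and 11 lower (14.1% and 17.2%, against 14% and 18.2% of all probes). In TBBPA larvae 12 were higher and 17 lower (18.8% and 26.6%, against 20.9% and 22.4%).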

How the data were processed

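RNA from 12 pooled eye samples had been hybridised in pairs on 14 two-colour Agilent arrays. Per the methods, the authors quantified spots in GenePix, corrected background by normexp, normalised within arrays by loess and analysed the data with limma (3.34.4). The deposited table holds log2 ratios of 17950 probes. It states neither log base nor direction, which were taken from the methods and dye labels. Turning any 1 array raised the residuals 1.02 to 1.88 times, which bears on the orientation of the arrays to each other and not on the base or the overall direction. No column of another sample was used.

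Here limma (3.58.1, R 4.3.3) was fitted to all probes, with group coefficients and no dye term. The RNA sample was a random effect (estimated share 0), and p was adjusted by Benjamini-Hochberg. A probe passed at an adjusted p under 0.05. Residual degrees of freedom were 11, and the number of arrays limits the precision. The fit was tested on simulated ratios that held no dye effect, so that test does not bear on leaving out the dye term.

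Symbols are those of the probe annotation. 82 member probes matched the RefSeq table of GRCz12tu by accession, and 19 have another symbol there (gstp1 is gstp1.2, aldh2a aldh2.1). 6 further probes bear such a name only there and were not counted. Of these cyp2aa6 rose at 5 dpf (0.32, adjusted p = 0.00382).

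Members and lists were chosen with earlier results of these data known. Named were members that passed a TBBPA test, the largest change per family, the 8 largest rises and falls with age in controls, and a fixed set of well-known members. Others, such as cyp2aa12, cyp7a1a and cyp27c1, were chosen after their values were seen. Slide and scan batches are not given in the sources used here. Background correction and a filter on dim spots could not be varied from ratios.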

Additional observations from a re-analysis of the deposited data

Results flagged for a closer look

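In the main fit, the effect of TBBPA on cyp2y3 differed between the ages by a direct test of that difference in limma. The effect at 8 dpf minus the effect at 5 dpf was -0.58 ± 0.07 (log2, adjusted p = 0.0047). The call was kept under 13 of 18 other settings, and the highest adjusted p among them was 0.236. TBBPA was higher on 6 of 6 direct arrays at 5 dpf, and the fitted effect was -0.02 at 8 dpf and 0.56 at 5 dpf.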

How the results depend on the processing

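Counts of member probes past the test, each with the share of all probes that passed in brackets, moved as follows. At 5 dpf, 10 passed (7.08%), against 3 (3.35%) with a dye effect and the RNA sample share estimated again (0.32), 2 (2.62%) with that share set to 0.25, 4 (3%) on the direct arrays alone, 0 (0.708%) with the fold limit of the study, and 2 to 13 when 1 RNA sample was left out. At 8 dpf, 2 passed (1.39%), against 0 (0.0446%) on the direct arrays, 0 (0.217%) with the fold limit, 1 (1.6%) with the probes of a gene averaged, and 0 to 4 with a sample left out. For the difference of the effects, 1 passed (0.0613%), against 2 (0.134%) with a dye effect, 2 (0.412%) with the replicate block, 0 (0.0279%) with the fold limit and 0 to 3 with a sample left out. With age in controls, 32 passed (32.3%), against 5 (6.59%) with arrays centred and scaled, 19 (18.7%) with the replicate block, 7 (6.8%) with the fold limit, 21 (37%) with probes averaged and 6 to 39 with a sample left out. With age in TBBPA larvae, 48 passed (43.3%), against 21 (16.2%) with arrays centred and scaled, 14 (9.32%) with the fold limit, 31 (47.1%) with probes averaged and 15 to 51 with a sample left out. With averaged probes, genes were counted. Scaling narrows the 4 arrays that link the ages, whose SD was 0.455 to 0.601, against 0.226 to 0.338 on the other 10. The cause of the other shifts was not tested. Of 18 same-numbered pairs of samples, 6 correlated above 0.1, with a range of -0.461 to 0.683. Pairs with unlike numbers ran from -0.728 to 0.592. Fitted levels of samples that share arrays depend on each other, so these values cannot decide whether the replicate numbers paired the samples. The block gave 12 at 5 dpf, 2 at 8 dpf and 42 with age in TBBPA larvae. No value changed its direction past the test. Of the values for single probes and family medians, 1628 kept their side, 148 lost the call, 5 gained it and 9 moved.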
